A study of Caenorhabditis elegans with 2 samples.

Results

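The C. elegans genome annotation places 183 of 346 nuclear snoRNA genes wholly inside the span of a protein-coding gene that is read from the same strand, and the binding of the FLYWCH zinc finger protein FLH-1 at these 183 genes in embryos is described here. They were chosen by position alone, from the Ensembl annotation of the WBcel235 assembly, and they lay in 159 host genes. Of the 183 genes, 150 lay wholly within an annotated intron of the host and the other 33 did not. Most hosts held 1 of them, 23 held several, and 3 of the snoRNA genes lay inside 2 hosts each. Strain OP702 carries the mutation unc-119(tm4063) and the transgene wgIs702, in which flh-1 is fused at its C-terminal end to TY1, EGFP and 3xFLAG tags and is accompanied by a rescuing unc-119(+) copy. The labels list no change to the strain's own flh-1 gene and do not name the promoter of the transgene. Embryos of both sexes and of mixed stage, obtained by egg bleaching and with an age entry of 2 hours, were pooled as whole organisms, and chromatin was precipitated with an antibody against GFP in 2 biological replicates of 1 group. Because there is 1 group of 2 replicates, no test between conditions exists, and all results are descriptions without p-values.

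Small nucleolar RNAs (snoRNAs) guide the chemical modification of other RNAs, above all ribosomal RNA. C/D box snoRNAs direct 2′-O-methylation through the methyltransferase fibrillarin, and H/ACA box snoRNAs direct the conversion of uridine to pseudouridine through dyskerin. A snoRNA inside an intron can be cut out of the host transcript after splicing, or it can be transcribed from a promoter of its own. Genes for tRNAs are transcribed by RNA polymerase III from an internal promoter made of an A box and a B box, which the factor TFIIIC binds, and in Saccharomyces cerevisiae a snoRNA gene read by this polymerase carries the same boxes ahead of the mature RNA. In C. elegans embryos FLH-1 is known as a repressor of microRNA genes.

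Each gene was scored by the strongest entry with a summit inside the gene or within 100 bp of it. Entries came from 4 deposited lists, namely 3 relaxed lists of 30000 entries (replicate 1, replicate 2 and the pooled reads) and the optimal set of 371 peaks that passed the irreproducible discovery rate (IDR), a measure of how well ranks repeat between replicates. The optimal peaks are the strongest 371 entries of the pooled list, so a peak in this set need not rank high in each replicate. The signal value is the authors' own value for each entry and was compared only within a list. An optimal peak lay at 21 of the 183 genes (11.5%, exact 95% interval 7.25 to 17.0). Another 32 had a weaker pooled entry, which made 53 with a pooled entry (29.0%, 22.5 to 36.1), and 130 had none. With the same reach, 16.6% of the 163 snoRNA genes outside same-strand hosts had an optimal peak and 36.2% a pooled entry. Stretches of host and other introns away from snoRNA genes, 328 bp long, had an optimal peak in 0.0831% of 68567 windows and a pooled entry in 9.37%. These windows lie wholly inside introns and so leave out introns shorter than 328 bp. Introns around the genes with an optimal peak had a median length of 309 bp. Without the windows near tRNA genes the optimal share was 0.0395%. Among 167 tRNA genes inside a same-strand protein-coding gene, 36 (21.6%) had an optimal peak. The share at snoRNA genes in hosts thus lay far above that of these windows of longer introns. It lay below the shares of the other small RNA genes, whose exact intervals (11.2 to 23.2 for other snoRNA genes, 15.6 to 28.6 for tRNA genes) overlap its own.

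The sequences ahead of the snoRNA genes with a peak carried a recurring arrangement of letters, shown here because it recurred at most of them. Each line below runs from 110 bp upstream of the gene to base 25 of the gene, 5′ to 3′ on the strand of the gene, in WBcel235. The first block in capitals marks letters of the A box type and the second block letters of the B box type.
C51F7.3 (chrV:12303598-12303732, plus strand): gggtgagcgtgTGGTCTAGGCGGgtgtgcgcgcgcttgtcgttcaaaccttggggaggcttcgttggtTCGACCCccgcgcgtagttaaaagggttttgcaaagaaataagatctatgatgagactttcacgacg
Y43F8C.22 (chrV:19643163-19643297, minus strand): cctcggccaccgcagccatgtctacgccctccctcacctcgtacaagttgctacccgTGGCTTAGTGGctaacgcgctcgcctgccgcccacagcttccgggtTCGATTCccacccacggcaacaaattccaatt
D1046.6 (chrIV:8927155-8927289, plus strand): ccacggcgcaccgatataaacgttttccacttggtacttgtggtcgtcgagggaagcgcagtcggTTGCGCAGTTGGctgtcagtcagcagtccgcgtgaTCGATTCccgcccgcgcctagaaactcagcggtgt
C05D2.15 (chrIII:5602155-5602289, minus strand): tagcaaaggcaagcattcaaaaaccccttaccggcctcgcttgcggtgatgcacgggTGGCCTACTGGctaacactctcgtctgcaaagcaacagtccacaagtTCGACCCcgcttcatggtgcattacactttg
F55A11.10 (chrV:11782882-11783016, plus strand): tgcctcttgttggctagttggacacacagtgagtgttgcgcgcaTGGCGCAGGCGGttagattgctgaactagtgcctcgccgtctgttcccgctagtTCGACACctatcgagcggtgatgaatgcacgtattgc
C27H6.5 (chrV:9970247-9970381, minus strand): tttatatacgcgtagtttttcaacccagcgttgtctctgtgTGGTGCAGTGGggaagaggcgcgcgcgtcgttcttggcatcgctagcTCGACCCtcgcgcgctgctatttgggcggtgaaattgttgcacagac
M106.6 (chrII:10840207-10840341, plus strand): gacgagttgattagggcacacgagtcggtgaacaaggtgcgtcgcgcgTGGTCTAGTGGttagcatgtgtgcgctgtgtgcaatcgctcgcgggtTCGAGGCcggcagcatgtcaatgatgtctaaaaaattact
Y38F2AR.14 (chrIV:2408611-2408745, minus strand): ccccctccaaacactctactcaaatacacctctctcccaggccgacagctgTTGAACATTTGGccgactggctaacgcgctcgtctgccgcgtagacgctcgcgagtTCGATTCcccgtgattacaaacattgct
ZK546.18 (chrII:4942495-4942629, minus strand): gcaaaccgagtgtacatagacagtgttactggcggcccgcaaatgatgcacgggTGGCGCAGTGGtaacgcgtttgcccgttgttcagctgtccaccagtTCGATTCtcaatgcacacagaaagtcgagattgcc
F11A10.9 (chrIV:12086599-12086733, plus strand): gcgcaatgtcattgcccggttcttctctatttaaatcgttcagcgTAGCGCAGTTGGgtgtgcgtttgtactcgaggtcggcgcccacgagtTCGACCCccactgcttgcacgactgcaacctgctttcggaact
The A box was searched as TNG, 3 bases of any kind, A, 2 or 3 bases of any kind, and GG, and the B box as TCGANNC, both on the strand of the gene, in a window of 150 bp made of 120 bp upstream and 30 bp of the gene. A pair needed 20 to 70 bases between the boxes, and the B box letters can overlap the word GTTCGA used further on. The letters were chosen after the sequences of these 21 genes had been read, so their frequency there is a description and not a test. The A box letters were TGGTCTAGTGG at M106.6 and TGGCGCAGTGG at ZK546.18, followed after 36 bases by TCGAGGC and after 35 bases by TCGATTC, respectively. The A box began ahead of the annotated snoRNA gene at each of the genes shown, and the B box reached the first bases of the gene at Y38F2AR.14 and C05D2.15.

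The pair stood at 12 of the 21 genes with an optimal peak (57.1%), at 1 of the 32 with a weaker pooled entry and at 0 of the 130 without a pooled entry. Read the other way, 12 of the 13 snoRNA genes with the pair had an optimal peak, whereas 9 of the 170 without it did. The 13th, T24H7.6, had its pooled entry at rank 422, close below the last optimal rank of 371. On the opposite strand no member had the pair. Among snoRNA genes outside hosts the pair stood at 7 of 27 with an optimal peak (25.9%) and at 2 of 136 without (1.47%). It stood in 0.338% of intron windows of 150 bp counted on each strand and at 0.775% of the 129 snRNA genes. In tRNA genes, whose boxes are internal, a window reaching 20 bp ahead of the 5′ end and 110 bp past it was searched instead, and it held the pair in 67.6% of 612 genes. The gap between the boxes ran from 23 to 45 bases with a median of 35.5 in the 12 genes, and the A box began from 99 to 45 bp upstream of the snoRNA, with a median offset of -60.5 bp. The B box began from 42 to 3 bp upstream, with a median offset of -12.0 bp.

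The A box letters alone were present at 18 of the 21 genes (85.7%), at 12 of 32 with a weaker entry (37.5%) and at 13 of 130 with none. Of all intron windows 13.7% held them, and of those with a GC content of 50 to 65% 20.6% did. Of the 43 members with these letters, 18 had an optimal peak. The 6 with an A box but no pair were C51F7.4, F38E11.14, C10C6.8, T08B2.13, K11C4.6 and Y71D11A.7. At C51F7.4 the missing pair depends on the window. The window of C51F7.4 holds the A box letters of the C51F7.3 pair but ends ahead of its B box letters, which lie further inside C51F7.4. The 3 without an A box, ZK994.7, Y37E3.20 and smy-2, shared other letters, AACCCG and TGTCGG separated by 5 bases, in capitals here for ZK994.7 and smy-2.
ZK994.7 (chrV:8500469-8500603, plus strand): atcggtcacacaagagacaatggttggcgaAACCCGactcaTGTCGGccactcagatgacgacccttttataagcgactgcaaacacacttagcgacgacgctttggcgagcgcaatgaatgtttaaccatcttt
smy-2 (chrIV:9511442-9511576, minus strand): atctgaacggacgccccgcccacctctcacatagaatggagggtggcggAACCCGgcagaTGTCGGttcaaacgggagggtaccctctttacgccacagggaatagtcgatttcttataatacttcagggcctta
These letters were also picked by reading. Of the 6 members that hold them 3 had an optimal peak, against 18 of the other 177. They stood as well at 3 of the 130 members without a pooled entry (C16D9.11, T19C4.11 and W04D2.7), at 0 of 27 other snoRNA genes with an optimal peak and at 13 of 136 without. They stood at 13 of the 129 snRNA genes (10.1%). Of all intron windows 0.0766% held them, and of those with a GC content of 50 to 65% 1.42% did. The name of smy-2 marks it as an SmY RNA, a nematode small RNA linked to trans-splicing, but the annotation lists it as a snoRNA.

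For comparison, the next lines show T24H7.6, the member with the pair and no optimal peak, and a snoRNA gene of a ribosomal protein gene (B0250.19 in rpl-2) and of nol-56 (K07C5.10), both without a pooled entry and without either box.
T24H7.6 (chrII:6248607-6248741, plus strand): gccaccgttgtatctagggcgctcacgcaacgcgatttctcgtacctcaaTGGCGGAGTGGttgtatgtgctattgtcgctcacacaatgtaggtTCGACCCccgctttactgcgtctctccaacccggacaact
B0250.19 (chrV:20479899-20480033, plus strand): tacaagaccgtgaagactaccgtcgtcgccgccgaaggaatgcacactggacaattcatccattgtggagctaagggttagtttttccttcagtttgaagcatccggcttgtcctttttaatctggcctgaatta
K07C5.10 (chrV:10351329-10351463, minus strand): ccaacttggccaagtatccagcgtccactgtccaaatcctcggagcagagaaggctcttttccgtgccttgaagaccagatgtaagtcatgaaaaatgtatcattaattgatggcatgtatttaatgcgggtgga

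**Figure D1:**
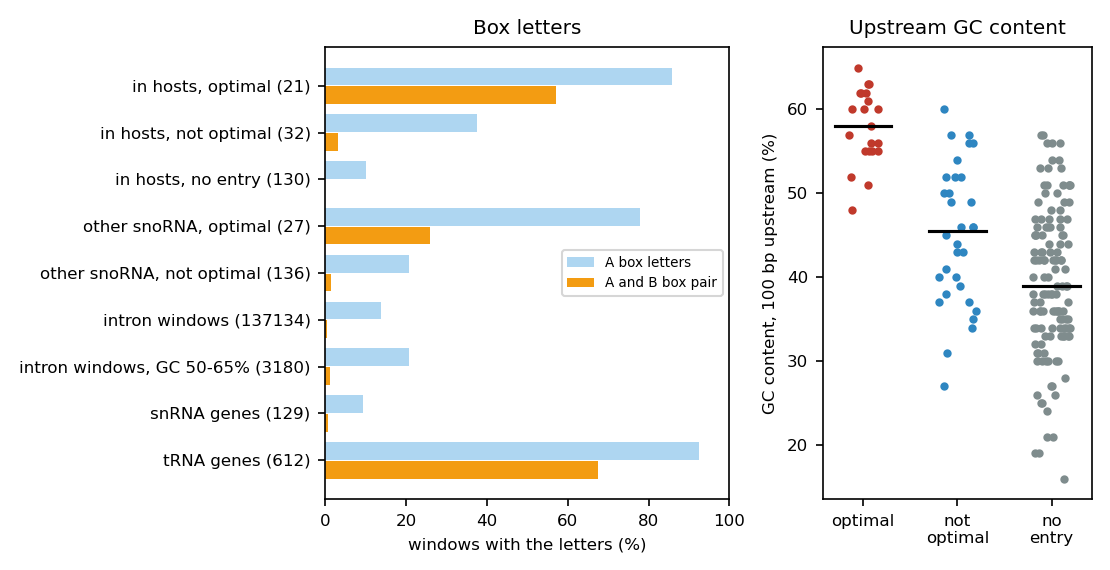
Left, the share of windows (%, 150 bp long, or from 20 bp ahead of the 5′ end to 110 bp past it at tRNA genes) with the A box letters (light bars) and with the A and B box pair (orange bars) at snoRNA genes in hosts, at other snoRNA genes and in background windows, with the number of windows in brackets. Right, GC content (%) of the 100 bp upstream of each snoRNA gene in a host, with the median as a line; the pair stood at 57.1% of genes with an optimal peak and at none of the 130 without an entry, and the GC medians were 58, 45.5 and 39%.

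GC content moved with the same classes. The 100 bp upstream of the gene had a median GC content of 58% at the 21 genes with an optimal peak (48 to 65), 45.5% at the 32 with a weaker entry and 39% at the 130 with none. Of the 49 members at 50% or above, 20 had an optimal peak, and all 13 with the pair were among these 49. Within them, 12 of 13 with the pair and 8 of 36 without it had an optimal peak. Of 77 members below 40%, none had one. Intron windows with a GC content of 50 to 65% held the pair in 1.16% of cases, compared with the 0.338% of all windows. The part of GC content in the peak calls was not tested. Of the words looked up in the 100 bp upstream on either strand, GTTCGA, which overlaps the B box letters, stood at 38.1% of the genes with an optimal peak, 6.25% of those with a weaker entry, 4.62% of those with no entry and 2.91% of intron windows. In the same order CGAACC stood at 28.6%, 12.5%, 3.85% and 1.31%. Its reverse complement GGTTCG can also overlap the B box letters, as at C51F7.3, Y43F8C.22 and M106.6. CGAACC is thus not independent of GTTCGA or of the B box. ACCACT stood at 14.3%, 21.9%, 0.769% and 2.85%, a higher share at genes with a weaker entry (7 of 32) than at those with an optimal peak (3 of 21). TATAAA stood at 9.52%, 3.12%, 7.69% and 12.8%, TTGCAA at 4.76%, 0%, 4.62% and 5.27%, and GCGCGC at 14.3%, 0%, 2.31% and 0.846%.

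The strongest of these sites lay in frm-7, which codes for a protein with a FERM domain. Its snoRNA genes C51F7.4 (V, 12303599 to 12303693) and C51F7.3 (V, 12303708 to 12303783) shared 1 peak with a pooled signal value of 653.3 at rank 5, and with signal values of 448.4 in replicate 1 (rank 6) and 202.0 in replicate 2 (rank 5). The summit lay 40 bp inside C51F7.4, whose start reaches into the preceding exon, and 69 bp upstream of C51F7.3. The pair of C51F7.3 thus lies inside the annotated C51F7.4, and which gene the peak belongs to cannot be told apart.

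ZK994.7 (V, 8500579 to 8500645), in the peroxidasin gene pxn-1, followed with a pooled signal value of 448.1, and it ranked at 11 in the pooled list and in both replicates, with signal values of 292.9 and 156.4. It carried no box letters, and its summit lay 3 bp ahead of the gene. Y43F8C.22, in Y43F8C.7, had a pooled signal value of 375.6 at rank 13, and signal values of 259.8 and 113.1 at ranks 12 and 20 in replicates 1 and 2. D1046.6 lies in cfim-2, which codes for a subunit of the mRNA cleavage factor. Its pooled signal value was 305.3 at rank 20, with 202.0 at rank 23 in replicate 1 and 102.3 at rank 24 in replicate 2. These sites stood near the top of every list, and a tRNA pseudogene lies within reach of D1046.6, as it does at T08B2.13. No other of the 21 had one.

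C05D2.15, in the MADF domain gene madf-11, had a pooled signal value of 279.7 at rank 30, with 196.6 at rank 27 in replicate 1 and 73.8 at rank 65 in replicate 2. F55A11.10, in F55A11.6, had 272.9 at rank 35 in the pooled list, 191.6 at rank 31 in replicate 1 and 75.3 at rank 60 in replicate 2. Both were higher in the order of replicate 1. F38E11.14 (IV, 9477629 to 9477699), in the cyclic nucleotide-gated channel gene cng-3, had 252.2 at rank 40, 156.3 at rank 50 and 95.8 at rank 32 in the pooled list, replicate 1 and replicate 2. C27H6.5, in unc-41, whose product acts at synapses in the recycling of vesicles, had a pooled signal value of 231.5 at rank 49, 132.8 at rank 82 and 106.5 at rank 22. These 2 sites were higher in the order of replicate 2.

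C10C6.8 (IV, 11474059 to 11474191), in the P-type ATPase gene catp-8, had a pooled signal value of 230.3 at rank 51, 149.0 at rank 57 in replicate 1 and 74.9 at rank 62 in replicate 2. M106.6 lies in mix-1, which codes for an SMC subunit of condensin. Its signal values were 219.3 at rank 59, 135.3 at rank 76 and 83.5 at rank 45. Y38F2AR.14, in Y38F2AR.12, closed the 12 strongest with 175.8 at rank 100, 122.4 at rank 96 and 61.1 at rank 96. The known roles of the hosts named so far vary: a peroxidasin, a channel, a condensin subunit, a synaptic protein and an RNA processing factor are among them.

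**Figure D2:**
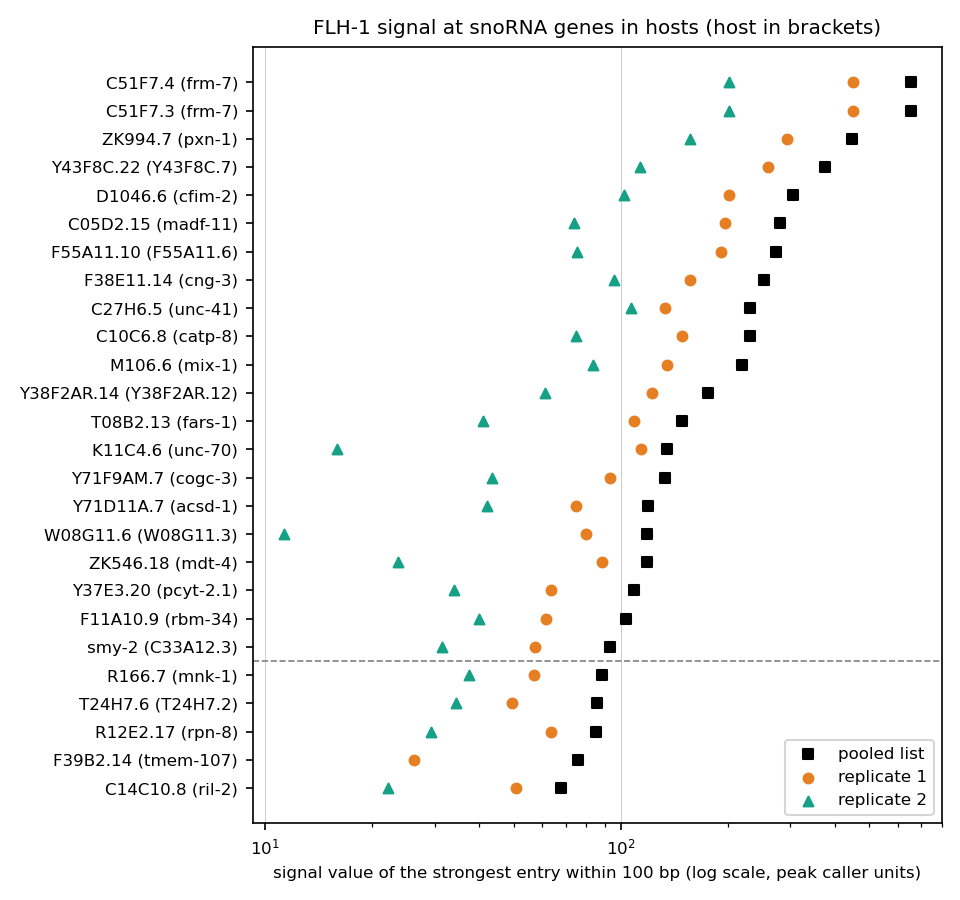
Signal value (log scale, peak caller units) of the strongest entry within 100 bp of each of the 21 snoRNA genes with an optimal peak and, below the dashed line, of the 5 that come next, in the pooled list, replicate 1 and replicate 2. Pooled values run from 653.3 at C51F7.4 to 93.2 at smy-2, and in replicate 2 K11C4.6 (15.9) and W08G11.6 (11.3) lie left of their neighbours.

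The other 9 genes with an optimal peak had pooled ranks from 134 to 347. T08B2.13, in the phenylalanyl tRNA synthetase gene fars-1, ranked at 134, Y71F9AM.7, in cogc-3 of the Golgi tethering complex, at 161, and Y71D11A.7, in acsd-1, at 216. Y37E3.20, in pcyt-2.1, ranked at 256, F11A10.9, in rbm-34, at 282, and smy-2, in C33A12.3, at 347. For 3 of the 9 the replicates diverged. K11C4.6, in the beta spectrin gene unc-70, had a signal value of 113.8 at rank 105 in replicate 1 and 15.9 at rank 8286 in replicate 2. W08G11.6, in W08G11.3, had 79.8 at rank 223 and 11.3 at rank 21356, and ZK546.18, in the Mediator subunit gene mdt-4, had 88.5 at rank 174 and 23.7 at rank 1614. All 3 were strong in replicate 1 and weak in replicate 2.

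Just outside the set, R166.7, in the kinase gene mnk-1, had a pooled signal value of 88.6 at rank 391, with 56.9 at rank 529 in replicate 1 and 37.4 at rank 297 in replicate 2. T24H7.6, in T24H7.2, had 85.6 at rank 422, and R12E2.17, in the proteasome subunit gene rpn-8, had 85 at rank 433. F39B2.14, in tmem-107, had 75.7 at rank 585, the same entry as in the host's promoter. Its summit had an offset of -78 bp from the snoRNA gene's start. Within reach of the gene, replicate 1 had a separate entry at rank 11583, with an offset of 276 bp, and replicate 2 had none. The promoter window of tmem-107 had an entry at rank 438 in replicate 1 and at rank 7984 in replicate 2. C14C10.8, in ril-2, had 68.0 at rank 821. Against the weakest member inside, smy-2 at 93.2, R166.7 thus differed little, and the line between them is that of the IDR threshold.

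The replicates placed most of the strong sites alike. Both replicates held 15 of the 21 genes within their top 371 entries, replicate 1 alone held 3 more, replicate 2 alone 1, and 2 were in neither top. Across the 21 genes the log2 signal values of the replicates gave Pearson's r as 0.825 and Spearman's rho as 0.873, a description over genes that were chosen on the pooled reads and that share both libraries. An entry of any strength stood at 30.6% of the 183 genes in replicate 1 and at 28.4% in replicate 2. The shares of intron windows away from snoRNA genes were 9.35% and 9.42%. Both replicates had an entry at 33 genes, among them all 21 with an optimal peak. Outside the 21, agreement was sparse: 23 genes had an entry in replicate 1 alone and 19 in replicate 2 alone, and 106 had none in any list. The highest of these single entries were at F56C9.12, in the phosphatase gene gsp-2, at rank 1241 of replicate 2, and at C02F5.15, in fbxl-1 and rfs-1, at rank 1868 of replicate 1. No gene was among the strongest 371 of one replicate with no entry in the other.

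**Figure D3:**
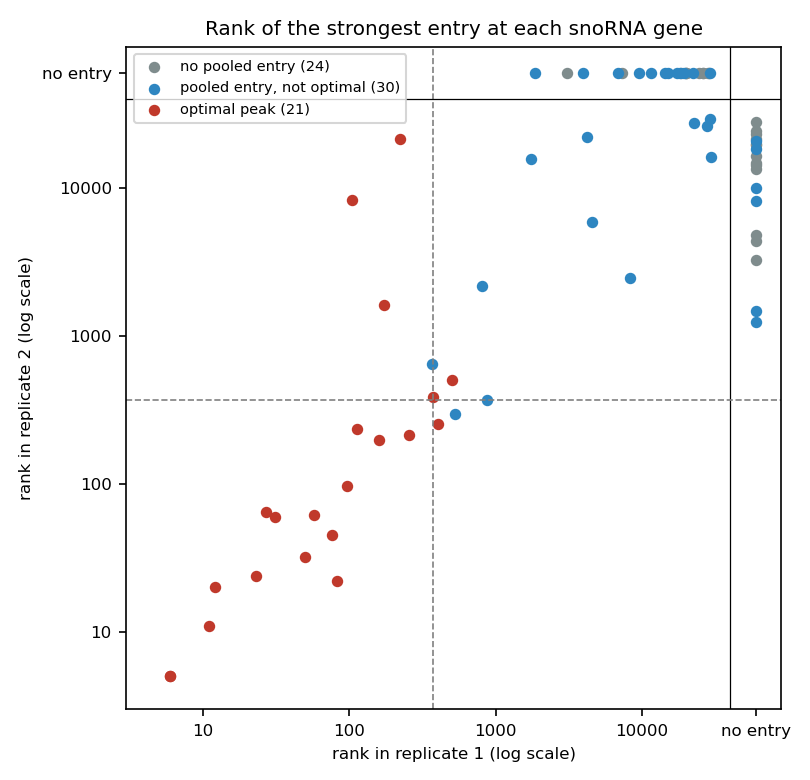
Rank (log scale) of the strongest entry at each snoRNA gene in a host in replicate 1 and replicate 2, with dashed lines at rank 371 and a separate strip for genes with no entry in that replicate; 108 genes with an entry in neither are not drawn. Genes with an optimal peak lie at the lower left, 15 of 21 under both lines, and the 3 that lie far above the lower dashed line are K11C4.6, W08G11.6 and ZK546.18.

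Summits lay ahead of the genes. At 20 of the 21 genes with an optimal peak the pooled summit was upstream and at C51F7.4 it was inside, and the offsets from the gene's start ran from -87 to 40 bp with a median of -51 bp. The medians of replicates 1 and 2 were -51 and -40 bp. The replicate summits at a gene lay a median of 24.0 bp apart, with a largest distance of 138 bp, and 10 of 21 were within 20 bp. At the 32 genes with a weaker entry 14 summits were upstream, 14 inside and 4 downstream. Summits at the 27 other snoRNA genes with an optimal peak had a median offset of -42.0 bp. Among the 12 genes with the pair and an optimal peak, 8 pooled summits fell between the start of the A box and the end of the B box, 3 upstream and 1 downstream. In replicate 1 this held for 7 and in replicate 2 for 9. The resolution of the summits, given the distances between replicates, does not assign them to 1 of the boxes.

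**Figure D4:**
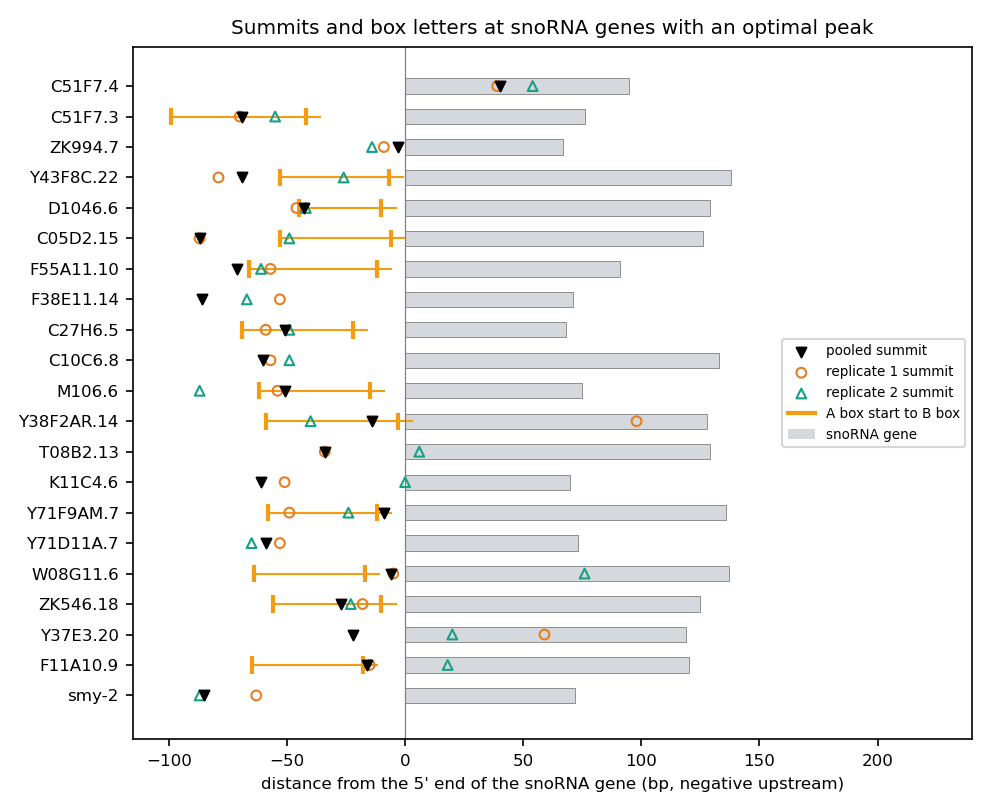
Position of the pooled summit (filled triangle) and of the summits of replicate 1 (open circle) and replicate 2 (open triangle) in bp from the 5′ end of each of the 21 snoRNA genes with an optimal peak, with the gene as a grey bar and the A and B box pair as an orange line from the start of the A box to the end of the B box. Pooled summits lie upstream at 20 of 21 genes, and 8 of 12 fall on the orange line.

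The host's own promoter was scored separately. The promoter window reached 1000 bp ahead of the host's 5′ end and 200 bp into the gene, and 8 of 159 hosts had an optimal peak in it (5.03%, exact 95% interval 2.20 to 9.67), against 0.888% of 19814 protein-coding genes that host no snoRNA. A pooled entry was present in 93 host promoters (58.5%), against 33.9%. By the outermost 5′ end of each host, none of the 20 hosts with an optimal peak at a snoRNA gene was among the 8. At a share of 5.03% over all hosts, that lack of overlap is no result about the 20 hosts. With the 5′ end of every transcript 14 hosts had a promoter peak, and at 5 of the 20 (cfim-2, F55A11.6, cogc-3, pcyt-2.1 and C33A12.3) the peak at the snoRNA gene itself fell in such a promoter. Of these 20, 9 had no pooled entry in their promoter, and the other 11 had signal values from 26.6 (catp-8) to 73.8 (unc-70), with a median of 31.1. At frm-7 the promoter had 31.1 at rank 16248, compared with 653.3 at its snoRNA genes, and at mix-1 46.6 at rank 4177, compared with 219.3.

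The 8 hosts with a promoter peak were led by alg-5, which codes for an Argonaute protein, with a signal value of 164.6 at rank 116, and rpl-15, for a ribosomal protein, with 146.9 at rank 139. Y41D4B.4 had 132.7, ttc-7 had 131.2, and cdc-48.1, for a AAA ATPase, had 126.3. The heat shock cognate gene hsp-1 had 123.6, the F-box gene fbxl-2 had 95 and his-72, for histone H3.3, had 91.5. At alg-5, Y41D4B.4 and ttc-7 the summits lay far out in the window, at -849, -840 and -714 bp from the host's 5′ end. At the others they lay from -361 bp (rpl-15) to 99 bp (his-72). Of the snoRNA genes in these 8 hosts only T23D8.11 in alg-5 had a pooled entry, with 24.2 at rank 28272. fbxl-2 ranked at 269 in replicate 1 and at 3788 in replicate 2, and the others stood within the strongest 436 of both.

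Over all 159 hosts, the pooled list had an entry at the snoRNA gene alone in 23, at both with the higher signal at the snoRNA gene in 16, at both as the same entry in 5, at both with the higher signal in the promoter in 8, in the promoter alone in 64 and at neither in 43. The promoter window is longer than the reach of a snoRNA gene and so has more room for a weak entry. The counts for promoter alone and snoRNA gene alone are therefore not on an equal footing. The 5 shared entries, at tct-1, nol-56, fbxl-1, Y37E3.8 and tmem-107, arose where the snoRNA gene lies close to the host's start. In the 137 hosts whose promoter window holds no small RNA gene within reach, the corresponding counts were 22, 16, 0, 6, 51 and 42. In replicate 1 the snoRNA gene was alone or higher in 27 and 16 hosts, and in replicate 2 in 25 and 13.

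**Figure D5:**
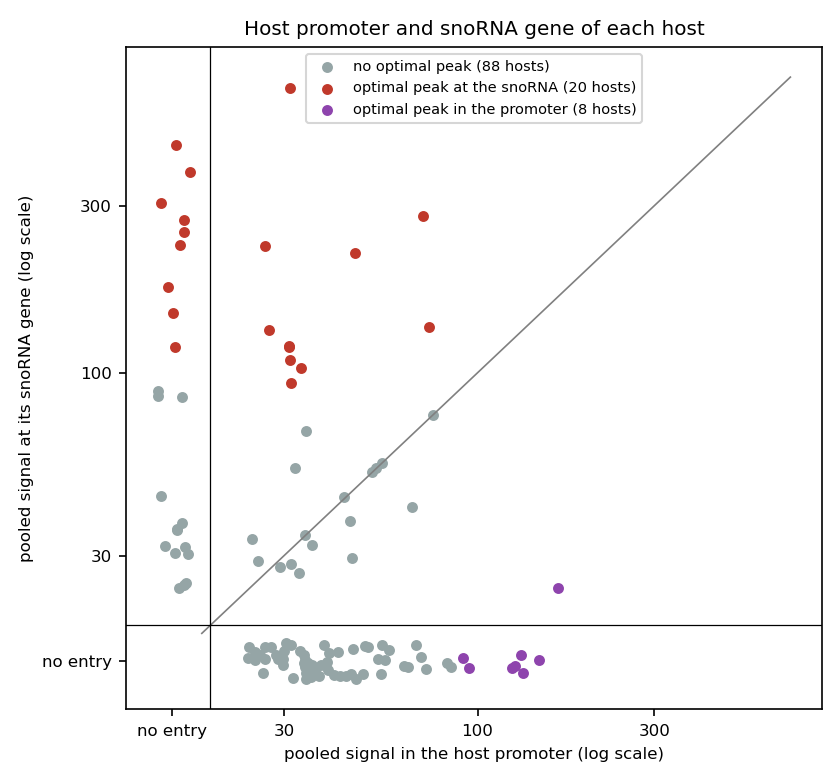
Pooled signal value (log scale) in the promoter of each host and at its snoRNA gene, for the 116 hosts with an entry at either; strips at the left and bottom, spread at random for legibility, hold hosts with no entry on that axis. The 20 hosts with an optimal peak at the snoRNA gene lie above the diagonal or in the left strip. The 8 with a peak in the promoter at the gene's outermost 5′ end lie at the lower right. No host has both, which is no result at a promoter share of 5.03% over all hosts.

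The snoRNA genes of ribosomal protein genes named rpl- or rps- carried few entries. This class was set by host name alone, so ribosomal protein genes under other names are not in it. Of the 19 in rpl- and rps- genes, a class singled out after its values were seen, none had an optimal peak and 2 had a pooled entry. Over all 183 genes, 21 had an optimal peak (11.5%) and 53 a pooled entry (29.0%). With only 19 genes, the lack of an optimal peak does not set the class apart. The entries at R151.13 in rpl-6 and Y24D9A.10 in rpl-7A ranked at 9183 and 20337. The promoters of all 13 of these hosts had a pooled entry, and that of rpl-15 had an optimal peak. Over all 159 hosts the promoter shares were 58.5% and 5.03%. The 4 snoRNA genes of nol-56, which itself codes for a core protein of C/D box particles, had no optimal peak: K07C5.11 ranked at 1989, K07C5.18 at 22370, and K07C5.10 and K07C5.12 had no entry. Of the 23 hosts with several snoRNA genes, which held 50, frm-7 alone had an optimal peak at one, and 8 had a pooled entry at any. In 1 of them, frm-7, each snoRNA gene had an entry. By chromosome, an optimal peak lay at 3 of 36 snoRNA genes in hosts on I, 2 of 35 on II, 2 of 38 on III, 6 of 28 on IV, 8 of 36 on V and 0 of 10 on X, against 11.5% over all 183. The count on X is too small to set it apart.

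By type, 8 of the 45 genes with an H/ACA-like end (ACA ending 3 bases before the 3′ end) had an optimal peak (17.8%), as did 2 of 6 with C/D-like boxes (TGATGA in the first 15 bases and CTGA in the last 15). The last rule finds few genes because it asks for exact letters. Genes under 100 bp had an optimal peak in 10 of 48 cases (20.8%) and longer ones in 11 of 135 (8.10%). All 45 H/ACA-like genes were at least 100 bp long, so the 8 with an optimal peak could only be among the 11 longer ones. Of these 8, 6 held the pair. Introns around genes with an optimal peak had a median length of 309 bp, against 294 bp for those with a weaker entry and 462 bp for those with none. The preceding exon ended a median of 163 bp ahead of the snoRNA gene, against 109 and 120 bp, and the next exon began a median of 50.5 bp after it, against 67.0 and 155 bp. Every stretch of 36 bases within 100 bp of the 21 genes was unique in the genome, and at 118 of the 130 genes without a pooled entry at least 90% were.

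A list of 12 genes related to snoRNA particles, transcription or splicing was looked up. It holds core proteins of both types of particle, the snRNA gene activator snpc-4, subunits of RNA polymerases I and III and a splicing factor. None had an optimal peak in its promoter, and 10 had a pooled entry. The shares over protein-coding genes that host no snoRNA were 0.888% and 33.9%, so that 0 of 12 is no result about the list. The highest was that of the fibrillarin gene fib-1 with a signal value of 60.3 at rank 1313. That of nol-56 had 55.2 at rank 1989, and snpc-4 and rpoa-2 had no entry. In the genome as a whole, the 21 genes accounted for 20 of the 364 nuclear optimal peaks (5.49%), for 4 of the strongest 20 nuclear ones and for 9 of the strongest 50. Counted by peak, the median signal value of these 20 was 197.6, against 125.1 at the other 344 nuclear peaks. Counted by gene, the median was 219.3 at the 21 genes, 217.2 at 27 snoRNA genes outside hosts and 125.2 at 36 tRNA genes in hosts.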

How the data were processed

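ChIP-seq was carried out on 2 biological replicates of 1 group. The deposited lists give a signal value per entry, which the authors computed against a control alignment on the ce11 assembly, according to the deposited description files. Neither aligner nor peak caller nor IDR threshold is named there. No read counts are in the lists, so depth is unknown. Entries were ranked by signal within each list of 30000 and matched to genes by their summit.

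Genes, hosts and introns came from the Ensembl release 115 annotation of WBcel235, whose 6 nuclear chromosomes cover every entry used, and all 183 snoRNA genes matched a RefSeq symbol. Sequences were read from the RefSeq genome of that build. Intervals are exact (Clopper-Pearson) and cover counting of genes only. Overlapping reaches share entries. The genes described, the gene list and the words were chosen with earlier results of these data known, and the box letters after reading the sequences. Named genes were the 21 with an optimal peak, the 12 strongest in full, the next 5, all hosts with a promoter peak, and genes that share a host with these or differ most between replicates; the genes of rpl-, rps-, nol-56 and shared-entry hosts were named after their values were seen. The entry lookup was tested on simulated data. Analyses used Python 3.11.15, pandas 2.3.3, numpy 2.4.6, scipy 1.17.1 and matplotlib 3.10.9.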

Additional observations from a re-analysis of the deposited data

How the results depend on the processing

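The number of snoRNA genes with an optimal peak was 21 with a reach of 100 bp and with 200 bp. It was 10 with 50 bp and 1 with 0 bp, since the summit lies ahead of the gene at 20 of the 21. The number with a pooled entry was 53 with 100 bp and fell to 32 with 50 bp and 16 with 0 bp. It rose to 70 with 200 bp and to 74 by interval overlap. Interval overlap, the coding span of the host, loci in place of genes, a stricter (15 genes) and a looser (25) number of strongest pooled entries kept the optimal count within 1.5 times, and each replicate alone gave 18 to 19. No gene had a tRNA, snRNA or other snoRNA gene outside the 183 within 200 bp, so leaving such genes out changed nothing. Hosts with an optimal promoter peak numbered 8, 5 with a promoter from 500 bp upstream and 14 with the 5′ end of every transcript; 5 of the 6 added are the peak at the snoRNA gene itself and 1 is another peak in mnk-1. Each replicate alone gave 7 to 8. Hosts whose snoRNA entry outranked the promoter numbered 39, with 28 for the 5′ end of every transcript, 36 and 40 for the longer and the shorter promoter, 38 in hosts whose promoter is clear of small RNA genes and 38 to 43 with 1 replicate. Genes near the top of both replicates numbered 15, with 12 at the stricter and 20 at the looser number of entries. The median summit offset ran from -51 to -40 bp between replicates. The share of genes with ACCACT moved from 6.01% to 1.64% with a 50 bp window, and that with TATAAA from 7.1% to 13.7% with 200 bp. Settings for the box pair, chosen after seeing the data, gave 11, 12 and 14 of the 21 genes with an optimal peak, and the loosest B box letters (TCNANNC) raised those with a weaker entry from 1 to 5 and those with none from 0 to 2; the wider window also gave 2 with none. No paired analysis was possible because there is 1 group. The unknown depth and the absence of a mock precipitation among the data used limit what an absent entry means.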
